A study of Caenorhabditis elegans with 2 samples.

Results

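Distal intergenic sites recovered with NHR-90, a nuclear hormone receptor of Caenorhabditis elegans, were described from chromatin immunoprecipitation followed by sequencing (ChIP-seq). Whole hermaphrodites of strain OP484 had been collected as young adults, 64 h after they were synchronized as starved L1 larvae following bleaching, per the labels. Every animal carried a stably expressed transgene for NHR-90 with GFP and FLAG at its C-terminus, and chromatin was recovered with antibody to GFP, although the labels' antibody field names nhr-90. There were 2 biological replicates, both of this 1 group, and a control experiment that the labels name was not analysed here. Whether a site belongs to the intestine, the germ line or another tissue cannot be told from whole animals, and which promoter drives the transgene is unknown here.

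The peaks described here come from the reproducible list, which was filtered by the irreproducible discovery rate (IDR), a score of how alike the replicates rank a peak. Their summits lay outside coding genes and away from gene starts. A summit qualified when it lay in no protein-coding gene body and outside the 1000 bp before and 500 bp after every protein-coding transcript start. It also had to lie more than 100 bp from any gene for a tRNA, snoRNA or snRNA. Of 1441 IDR peaks, 1422 lay on the nuclear chromosomes, and 241 of these (16.9%, exact 95% interval 15 to 19) were distal. The other nuclear summits were 496 in promoter windows, 466 at small-RNA genes and 219 in gene bodies. The rule used position relative to these genes only, so it did not use signal, sequence or genes of other classes. Distance from coding genes, their orientation and the chromosome shares are not free of the rule. Tests of these compare the distal IDR peaks with other peaks that passed the same rule.

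Nuclear hormone receptors are transcription factors that bind DNA through zinc fingers and often respond to small lipophilic ligands, and the family is greatly expanded in nematodes. The nematode genome is compact, with most regulatory DNA close to gene starts. Sites farther away can be enhancers, starts of unannotated transcripts, or places where chromatin is open and many factors are recovered together. A peak list does not distinguish these.

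The 100 bp at the summit are printed here for the distal peaks with the highest signal and for examples of the sequences that recurred at distal summits. All are from WBcel235 (the assembly of ce11 coordinates, sequence from RefSeq), on the plus strand, and each is named by the protein-coding genes on either side. The central 50 bases of each occurred once in the genome. The cutl-22/cmd-1 window is chrV:1151440-1151539 and the alh-3/hrg-5 window is chrIV:11026152-11026251. These were the windows of the 2 strongest distal peaks, and no base is capitalized in them.
cutl-22/cmd-1: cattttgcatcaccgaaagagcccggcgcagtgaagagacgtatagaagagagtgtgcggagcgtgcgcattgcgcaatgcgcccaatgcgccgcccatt
alh-3/hrg-5: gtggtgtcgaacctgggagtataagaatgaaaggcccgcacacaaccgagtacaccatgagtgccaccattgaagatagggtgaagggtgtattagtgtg
In the next windows the capitals mark CTGCGTCTC or its reverse complement, a word joined from the 6-base words described further on. They are the strongest distal peak on X between gtr-1 and F25E2.2 (chrX:806638-806737), a peak between M106.2 and M106.7 (chrII:10851281-10851380) and a peak between ret-1 and npr-13 (chrV:14849764-14849863).
gtr-1/F25E2.2: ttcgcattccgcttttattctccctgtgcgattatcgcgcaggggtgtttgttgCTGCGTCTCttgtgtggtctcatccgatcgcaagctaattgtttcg
M106.2/M106.7: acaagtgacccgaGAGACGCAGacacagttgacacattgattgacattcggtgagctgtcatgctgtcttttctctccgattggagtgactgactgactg
ret-1/npr-13: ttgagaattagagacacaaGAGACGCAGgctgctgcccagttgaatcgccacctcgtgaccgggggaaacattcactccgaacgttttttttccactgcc
In the next windows the capitals mark CACGTG, the E-box bound by basic helix-loop-helix factors. They lie past the 3′ end of mdl-1 (chrX:6743965-6744064), between gbb-1 and aakg-3 (chrX:2971625-2971724) and between lpin-1 and letm-1 (chrV:13658704-13658803).
mdl-1/abts-4: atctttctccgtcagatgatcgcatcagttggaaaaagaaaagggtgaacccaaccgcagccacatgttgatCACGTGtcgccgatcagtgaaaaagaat
gbb-1/aakg-3: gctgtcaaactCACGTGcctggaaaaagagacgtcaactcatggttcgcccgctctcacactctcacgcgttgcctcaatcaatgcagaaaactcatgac
lpin-1/letm-1: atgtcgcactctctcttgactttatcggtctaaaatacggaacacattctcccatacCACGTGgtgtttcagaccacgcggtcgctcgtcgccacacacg
In the last windows the capitals mark a run of GAGAGAG on the opposite strand (chrX:12872416-12872515) and TGATAA, the core of a GATA factor site, on the plus strand (chrIV:14594415-14594514) and on the opposite strand (chrV:8651527-8651626).
T14G8.3/bcat-1: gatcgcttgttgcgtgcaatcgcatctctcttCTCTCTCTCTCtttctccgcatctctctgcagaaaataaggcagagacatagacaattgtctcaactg
irld-18/dmd-6: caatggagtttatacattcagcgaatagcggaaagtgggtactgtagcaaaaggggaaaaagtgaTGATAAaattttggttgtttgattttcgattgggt
asp-13/ZC190.4: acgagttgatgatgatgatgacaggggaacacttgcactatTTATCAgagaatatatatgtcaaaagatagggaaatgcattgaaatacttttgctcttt

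The peak signal is the authors' own value for each peak, on a scale that is not given in the sources used here. It is read only within a list. Signals are given first for the list called from both replicates together, the pooled list, from which the IDR peaks come. The distal peaks had a median pooled signal of 129, an interquartile range of 111 to 163 and a range of 98.9 to 447. In replicate 1 their median was 76.3 (range 35.7 to 293, 239 peaks), and in replicate 2 it was 59.8 (range 13.8 to 181, 241 peaks). Among all 1441 IDR peaks they ranked from 27 to 1441, and 7 of the 100 strongest nuclear peaks were distal.

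Distal peaks were weaker than peaks at small-RNA genes, with a median pooled signal of 129 against 178, while the median was 128 both in promoter windows and in gene bodies. Of the distal peaks, 98 of 241 (40.7%) exceeded the median of all nuclear IDR peaks, a signal of 140. Of promoter-window peaks 187 of 496 (37.7%) did, an odds ratio of 1.13 (95% interval 0.828 to 1.55, exact Fisher test, adjusted p = 0.468). Of gene-body peaks 79 of 219 (36.1%) did, an odds ratio of 1.21 (0.833 to 1.77, exact Fisher test, adjusted p = 0.468). These intervals include odds ratios on both sides of 1. Of small-RNA-gene peaks 347 of 466 (74.5%) exceeded it, an odds ratio of 0.236 (0.170 to 0.328, exact Fisher test, adjusted p = 6.49e-18 over 3 comparisons). Peaks are not replicates, so this p and those that follow count peaks as units and say nothing of the spread between animals.

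Both replicates held nearly all distal peaks. Of the 241, 239 (99.2%) overlapped a peak in both replicate lists by 1 bp or more. The IDR list was derived from those lists, so the overlap describes its making. The other 2 lacked an overlapping peak in replicate 1, and both lay on chromosome IV. Each replicate's own 1422 strongest nuclear peaks are a stricter standard. Those of replicate 1 overlapped 205 distal peaks (85.1%), those of replicate 2 overlapped 193 (80.1%), and both did so at 162 (67.2%). The share in both was 62.3% for promoter-window peaks, 67.1% for gene-body peaks and 85.2% for small-RNA-gene peaks. Across the 239 distal peaks with both values, the replicate signals had a Spearman rho of 0.431, a description over peaks of 2 libraries. The same measure was 0.466 in promoter windows, 0.497 in gene bodies and 0.757 at small-RNA genes.

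The 20 strongest distal peaks had signals above the median of the distal peaks in both replicates. They were chosen by pooled signal, which draws on both replicates, so this largely follows from the choice. The strongest, between cutl-22, a cuticlin-like gene, and cmd-1, which encodes calmodulin, spanned chrV:1151284-1151681. It had a pooled signal of 447, with 293 in replicate 1 and 151 in replicate 2. Its summit lay 4989 bp from cutl-22, 4781 bp from cmd-1 and inside linc-128, a long intergenic non-coding RNA gene. The next, at chrIV:11025897-11026372, had a pooled signal of 406, with 223 in replicate 1 and 181 in replicate 2. It lay 332 bp past the 3′ end of alh-3, an aldehyde dehydrogenase gene, on the side of hrg-5, a heme-responsive gene.

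Most of the strongest distal peaks lay on X. The third, at chrX:806548-806818, lay 303 bp past the 3′ end of F25E2.2 with a pooled signal of 343, 200 in replicate 1 and 131 in replicate 2. A peak at chrX:11094038-11094341 between W04G3.11 and W02H3.3 had a pooled signal of 327, with 186 in replicate 1 and 141 in replicate 2. A peak at chrX:12872238-12872612 lay 2441 bp from T14G8.3 and 5014 bp upstream of bcat-1, a branched-chain amino acid aminotransferase gene. It had a pooled signal of 310, with 194 in replicate 1 and 116 in replicate 2. In both replicates all 3 stood far above the medians of the distal peaks.

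Others of the 20 were flanked by genes for kinases, a Ras regulator and a heme transporter. A peak 1297 bp past the 3′ end of hpk-1, a homeodomain-interacting protein kinase gene, had a pooled signal of 270.5, with 135 in each replicate. By signal it ranked 217 in the replicate 1 list and 93 in the replicate 2 list. One 86 bp past mak-1, a MAP kinase-activated protein kinase gene, had a pooled signal of 252, with 176 in replicate 1 and 98.9 in replicate 2. Its interval also held a second, weaker summit. A peak 1129 bp from ZK899.6 and 6600 bp from gap-2, which encodes a Ras GTPase-activating protein, had a pooled signal of 258. It had 120 in replicate 1, where it ranked 300, and 142 in replicate 2, where it ranked 76. A peak 185 bp past hrg-1, a heme transporter gene, had 244 in the pooled list. Its signal was 95.9 in replicate 1, where it ranked 528, and 148 in replicate 2, where it ranked 68.

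The remaining peaks among the 20 had pooled signals from 225 to 304. On X they lay between T27A8.7 and T27A8.2, F19H6.6 and F19H6.5, adm-2, an ADAM metalloprotease gene, and K02D3.1, WBGene00020828 and T26C11.4, C30E1.4 and F52G3.8, and F22H10.2 and F22H10.11. On the autosomes they lay between cdk-14 and zfr-1, sup-26, which encodes an RNA-binding protein, and R10E4.3, M106.2 and M106.7, F09E5.7 and the chemoreceptor gene srg-69, and F40E3.3 and mage-1. The last was the 1 distal peak whose central 50 bases occurred elsewhere in the genome, in 5 copies. In all, 12 of the 20 (60%) lay on X, 3 on II, 2 on I and 1 each on III, IV and V. Of all 241 distal peaks, 24.5% lay on X. Neighbouring genes were tandem at 10 (50%), convergent at 9 (45%) and divergent at 1 (5%), against 60.6%, 19.1% and 20.3% of all distal peaks. A coding gene's 3′ end lay within 500 bp of 8 summits (40%), against 30.7% of all distal summits. These differences were not tested.

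**Figure D1:**
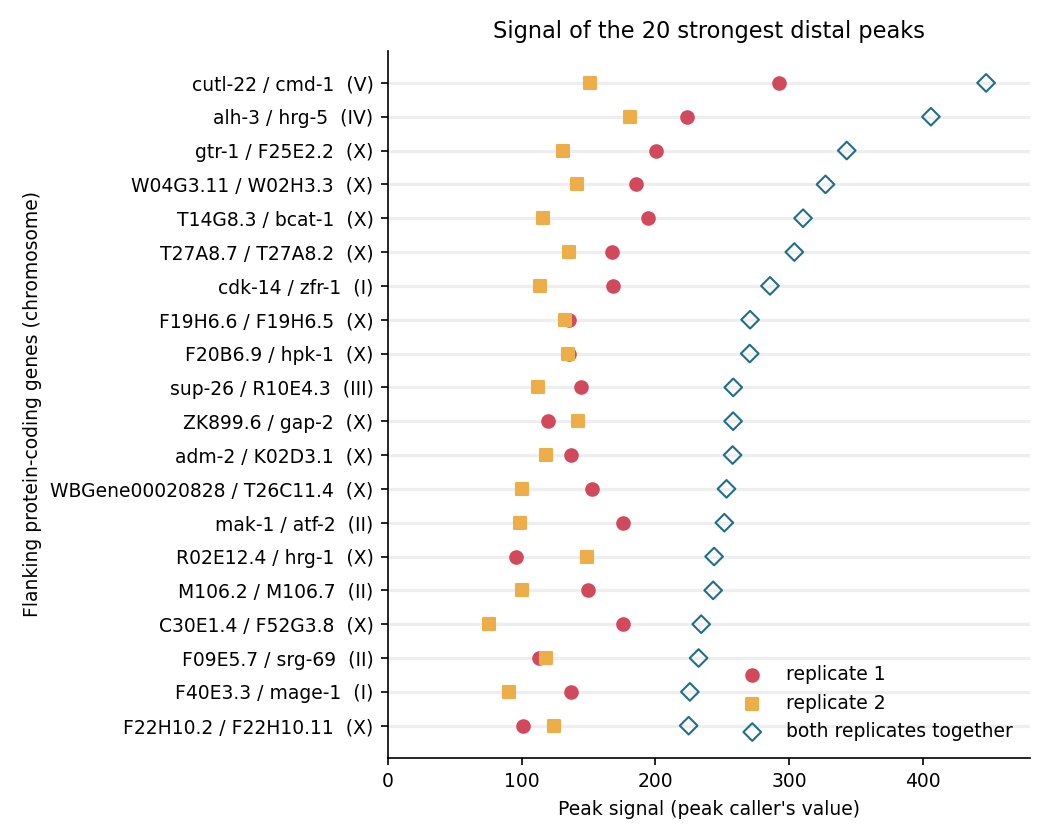
Peak signal of the 20 distal IDR peaks with the highest pooled signal. The x axis is the authors' signal value in the list of each replicate (filled symbols) and of both together (open diamonds), and each row is 1 peak named by its flanking protein-coding genes and chromosome. Pooled signals run from 447 down to 225, and the replicate 1 value exceeds that of replicate 2 in most rows. The ZK899.6/gap-2, R02E12.4/hrg-1, F09E5.7/srg-69 and F22H10.2/F22H10.11 peaks are the exceptions. The 2 replicate lists differ in level, with medians of 76.3 and 59.8 over the distal peaks, so values are not compared between them.

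The distal share was compared with the pooled peaks that shared no base with an IDR peak, called lower peaks here. Of 29981 nuclear pooled peaks, 4.74% were on the IDR list. Lower peaks come from a list titled as input for IDR that includes background, so they were not taken as weaker binding sites. Their signal was lower all the same. Lower distal peaks had pooled signals from 15.1 to 98.5 (median 25.4), whereas those of distal IDR peaks began at 98.9. Each comparison of IDR with lower distal peaks is therefore also one of higher with lower signal. The rule of position was passed by 241 of 1422 nuclear IDR peaks (16.9%), against 4080 of 27930 nuclear lower peaks (14.6%). By Fisher's exact test this was an odds ratio of 1.19 (p = 0.0173), with a 95% interval of 1.04 to 1.38. The difference was small and was not kept in all settings. The odds ratio was 1.04 (Fisher's exact test, p = 0.632) in the strongest peaks of replicate 2 alone, and 0.932 (p = 0.551) for the 720 strongest IDR peaks, of which 96 were distal.

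Distal IDR peaks were spread over all 6 nuclear chromosomes, with the most on X. There were 59 on X (24.5%), 46 on V (19.1%), 43 on IV (17.8%), 39 on III (16.2%), 30 on II (12.4%) and 24 on I (9.96%). Of the 4080 lower distal peaks, 18.9% lay on X, 18.9% on V, 15.2% on IV, 14.6% on III, 17.3% on II and 15.1% on I. The odds ratio was 1.40 for X (1.03 to 1.89), 0.689 for II (0.467 to 1.02) and 0.633 for I (0.413 to 0.970). None of the 6 chromosomes passed Fisher's exact test after adjustment over the 6, with adjusted p = 0.105 for X, II and I. X passed in the strongest peaks of replicate 1 alone, with an odds ratio of 1.74 (exact Fisher test, adjusted p = 0.00369), while replicate 2 alone gave 1.35 (adjusted p = 0.105). X also passed when 2000 bp upstream to 1000 bp downstream of starts were left out, which kept 162 distal peaks. Then 32.1% of IDR against 19.3% of lower distal peaks lay on X, an odds ratio of 1.98 (exact Fisher test, adjusted p = 0.00102). Chromosome I held a lower share in the same setting, with 6.17% of IDR against 14.9% of lower distal peaks (odds ratio 0.394, exact Fisher test, adjusted p = 0.00350), and so did II, with 10.5% against 17.2% (0.578, adjusted p = 0.0469). Chromosome I also passed in replicate 1 alone (odds ratio 0.585, exact Fisher test, adjusted p = 0.0318).

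**Figure D2:**
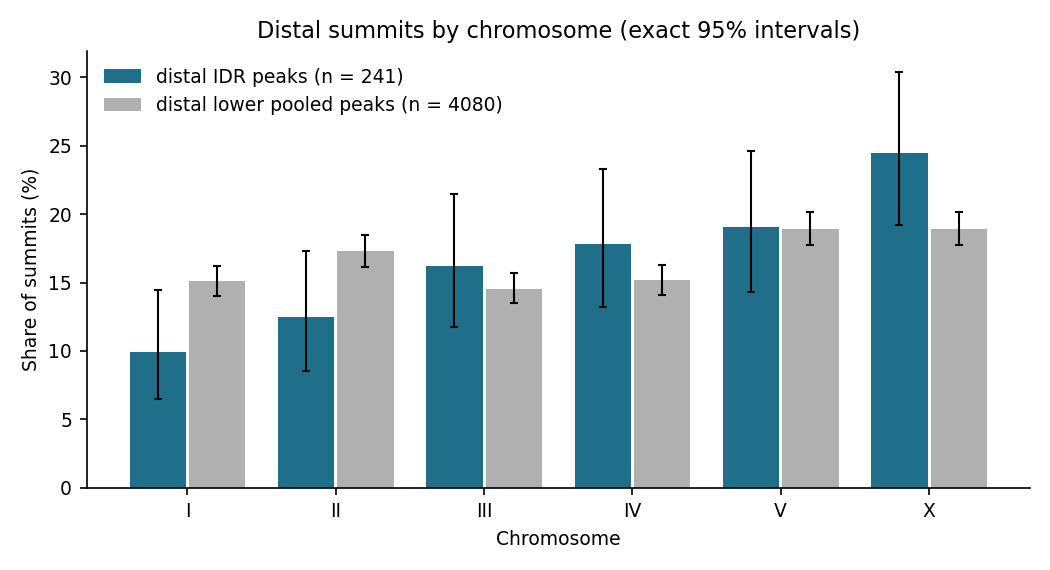
Share of distal summits on each chromosome. The y axis is the percent of the 241 distal IDR peaks (dark bars) or of the 4080 distal lower pooled peaks (grey bars), and error bars are exact 95% intervals over peaks. X holds 24.5% of the IDR and 18.9% of the lower peaks, and I holds 9.96% and 15.1%.

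The share of peaks with higher signal ran in nearly the same order as the chromosome shares, although V stood above X and II above III. Of the distal peaks on X, 25 of 59 (42.4%) exceeded the median signal of nuclear IDR peaks, against 20 of 46 on V (43.5%), 18 of 43 on IV (41.9%), 12 of 30 on II, 15 of 39 on III (38.5%) and 8 of 24 on I (33.3%). The upper quartile was 198 on X and between 148 and 166 on the autosomes. In a comparison added after the values were seen, 63 of 182 autosomal distal peaks (34.6%) lay in the middle of their chromosome when each was divided into 3 equal parts, against 28.1% of 3308 lower ones (odds ratio 1.36, 0.991 to 1.86, Fisher's exact test, p = 0.0636). That difference did not pass the threshold.

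Distal IDR summits lay a median of 1340 bp from the nearest protein-coding gene body, with an interquartile range of 268 to 2526 bp and a range of 4 to 13426 bp. Lower distal summits lay a median of 1516 bp away (535 to 2742, range 1 to 19744). More than 2000 bp separated 84 distal IDR summits (34.9%) and 37.4% of lower summits from every coding gene, an odds ratio of 0.900 (0.686 to 1.18, Fisher's exact test, p = 0.451). Beyond 5000 bp lay 13 IDR summits (5.39%) and 8.16% of lower summits. The nearest start of a coding transcript was a median of 2188 bp from IDR summits and 2403 bp from lower summits, distances for which the rule sets the minimum. A 3′ end of a coding gene lay within 500 bp of 74 distal IDR summits (30.7%) and of 24.1% of lower summits. The rule leaves out the 1000 bp before each start, so summits this close to a coding gene lie largely at its 3′ side by selection. The difference between the 2 lists in this share was not tested.

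The distal summit farthest from a coding gene lay at chrIV:14594240-14594689, 13426 bp from irld-18 and 22138 bp from dmd-6, a DM-domain transcription factor gene. It had a pooled signal of 220 and a signal of 80.9 in replicate 2, where it ranked 406, and no overlapping peak in replicate 1. The second, at chrX:6254165-6254293, lay 9429 bp from W05H9.4, with 99.999 in the pooled list, 64.1 in replicate 1 and 68.9 in replicate 2. The third, at chrIII:1743079-1743528, lay 8879 bp from Y46E12A.3 and 10203 bp from the serotonin receptor gene ser-4. It had 139 in the pooled list, 84.2 in replicate 1 and 53.9 in replicate 2. The 3 farthest summits thus included a peak that only the replicate 2 list overlapped and a peak close to the end of the IDR list.

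Flanking coding genes were in tandem at 146 distal IDR summits (60.6%), divergent at 49 (20.3%) and convergent at 46 (19.1%). Among lower distal summits the shares were 57.8% tandem, 25.5% divergent and 16.6% convergent. The odds ratio was 0.752 for divergent (0.546 to 1.04, adjusted p = 0.237), 1.19 for convergent (0.857 to 1.66, adjusted p = 0.421) and 1.12 for tandem neighbours (0.858 to 1.46, adjusted p = 0.421), and none passed Fisher's exact test. In the strongest peaks of replicate 2 alone the share between divergent genes was lower than in its other distal peaks, with an odds ratio of 0.599 (exact Fisher test, adjusted p = 0.00579), against 0.703 (adjusted p = 0.0983) in replicate 1. The median pooled signal was 133 between convergent, 129 between tandem and 123 between divergent genes.

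Peaks just inside and just outside the edges of the rule are given as a description. In the 100 bp just beyond the upstream limit of 1000 bp lay 7 distal peaks (median signal 123), and in the 100 bp just within it lay 14 promoter-window peaks (median 140). Within 100 bp outside a coding gene lay 18 distal peaks (median 125), and 22 gene-body peaks lay within 100 bp of a gene's 3′ end (median 122). No distal summit lay between 100 and 200 bp from a tRNA, snoRNA or snRNA gene, whereas 36 small-RNA-gene peaks lay more than 50 bp from theirs (median 193).

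Annotated genes of the 7 classes that the rule had not used lay within 100 bp of 48 distal IDR summits (19.9%) and of 19.5% of lower distal summits, but the classes differed. Genes of the general class ncRNA were near 34 IDR summits (14.1%) and 309 lower summits (7.57%). This gave an odds ratio of 2.03 (1.39 to 2.96, exact Fisher test, adjusted p = 0.00320). Pseudogenes were near 9 IDR summits (3.73%) and 401 lower summits (9.83%), an odds ratio of 0.374 (0.194 to 0.722, exact Fisher test, adjusted p = 0.00320). The ncRNA difference was present in each replicate alone, with odds ratios of 1.85 (exact Fisher test, adjusted p = 0.00862) in replicate 1 and 2.46 (adjusted p = 1.09e-04) in replicate 2. The pseudogene difference passed in replicate 1, with an odds ratio of 0.319 (exact Fisher test, adjusted p = 4.75e-04), but not in replicate 2, with 0.515 (adjusted p = 0.0907). Neither passed among the 96 distal peaks of the 720 strongest, where the ncRNA odds ratio was 1.80 and that of pseudogenes 0.446 (exact Fisher test, adjusted p = 0.280 for each).

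**Figure D3:**
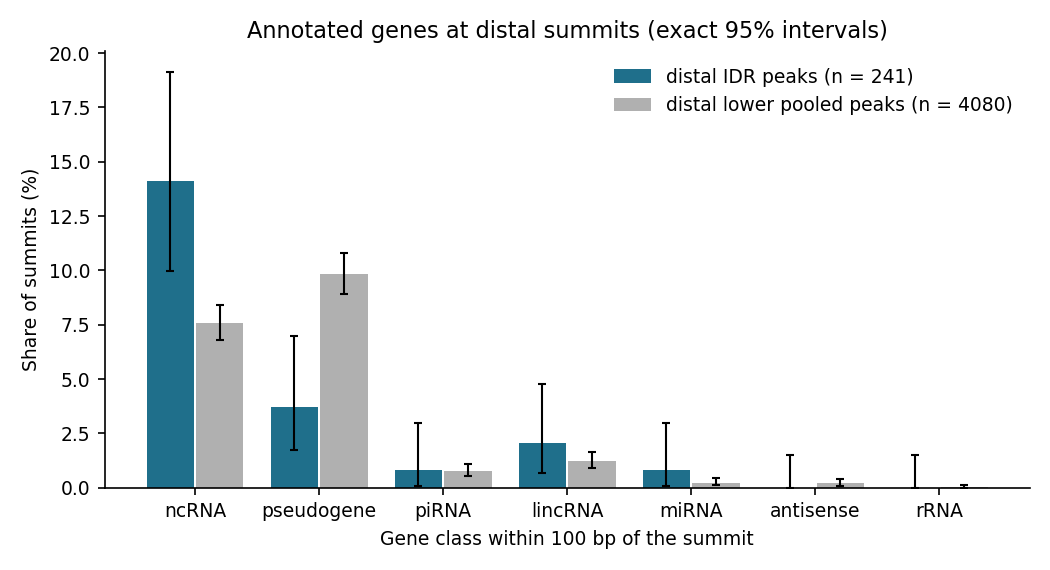
Share of distal summits within 100 bp of an annotated gene of each class. The y axis is the percent of the 241 distal IDR peaks (dark bars) or of the 4080 distal lower pooled peaks (grey bars), with exact 95% intervals over peaks. The ncRNA bars stand at 14.1% and 7.57% and the pseudogene bars at 3.73% and 9.83%, while the intervals of the other 5 classes overlap.

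The strongest distal peaks at ncRNA genes were those at F36H1.17 beside alh-3, with a pooled signal of 406, and at C30E1.9 on X, with 234 in the pooled list, 176 in replicate 1 and 75.3 in replicate 2. A further peak at R03E9.10, 116 bp past the 3′ end of mdl-1, a Mad-like basic helix-loop-helix gene, had 219 in the pooled list, 128 in replicate 1 and 89.6 in replicate 2. That gene and the next were picked after their values were seen. A peak at tts-1, a long non-coding RNA known to associate with ribosomes in long-lived animals, had 122 in the pooled list, 93.9 in replicate 1 and 29.3 in replicate 2. Transcription of these genes was not measured.

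MicroRNA genes, which encode short RNAs that repress messenger RNAs, lay within 100 bp of 2 distal IDR summits (0.830%) and of 0.245% of lower summits, an odds ratio of 4.05 (1.01 to 16.2, exact Fisher test, adjusted p = 0.330). Both belong to the mir-51 family. The peak beside alh-3 lay 90 bp upstream of the 5′ end of the annotated mir-51 hairpin, and a peak at chrIV:14033750-14034199 lay 33 bp upstream of that of mir-52. The mir-52 peak had 110 in the pooled list, 80.4 in replicate 1 and 54.1 in replicate 2. The mir-51 peak was higher than the mir-52 peak in every list.

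Within 500 bp, 7 distal IDR summits (2.90%) and 0.882% of lower summits had a microRNA gene, an odds ratio of 3.54 (exact Fisher test, adjusted p = 0.0206 over the 7 classes at that distance). Besides mir-51 and mir-52 these were mir-80, mir-239a, mir-239b, mir-45 and mir-241, of which mir-241 belongs to the let-7 family of developmental timing regulators. The mir-80 peak lay 286 bp upstream of the hairpin, with 210 in the pooled list, 135 in replicate 1 and 81.5 in replicate 2. The mir-239b summit lay 459 bp upstream and the mir-241 summit 478 bp upstream of the hairpin, with pooled signals of 163 and 102. The mir-45 and mir-239a summits lay 438 bp and 411 bp downstream of the 5′ end of theirs, with pooled signals of 113 and 105. Thus 5 of the 7 summits lay upstream of the hairpin. The mir-239a and mir-239b genes are neighbours on X.

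Long intergenic non-coding RNA genes lay at 5 distal IDR summits (2.07%) and at 1.25% of lower summits (odds ratio 1.82, 0.748 to 4.43, exact Fisher test, adjusted p = 0.419). They were linc-128 with the strongest distal peak, linc-91 with overlapping peaks of 222 and 114, and linc-129 with peaks of 111 and 107. Genes for piRNAs, which silence transposons in the germ line, lay at 2 IDR summits and at 0.784% of lower summits. No distal IDR summit lay within 100 bp of an antisense RNA or rRNA gene, where the exact 95% interval reaches 1.52%, and 9 and 1 lower summits did. At these counts a difference in the classes of piRNA, antisense RNA and rRNA genes was not detectable within 100 bp.

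Of the 9 pseudogenes at distal IDR summits, WBGene00020829 lay at the strongest peak, with 253 in the pooled list, 152 in replicate 1 and 99.9 in replicate 2. WBGene00023323 followed with 196 and WBGene00005825 with 170 in the pooled list, and the other 6 had pooled signals from 99.1 to 152. WBGene00023364 and WBGene00023381 are tRNA pseudogenes in the RefSeq annotation. The first lay at the peak near ser-4, and the second had 122 in the pooled list, 78.5 in replicate 1 and 46.0 in replicate 2. A RefSeq tRNA pseudogene lay within 100 bp of these 2 distal IDR summits (0.830%) and of 15 lower summits (0.368%).

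Distal IDR windows held bases marked as repeats less often than lower distal windows. The central 50 bases occurred elsewhere in the genome at 1 IDR summit (0.415%) and at 104 lower summits (2.55%), an odds ratio of 0.237 (0.0471 to 1.20, exact Fisher test, adjusted p = 0.0593), which did not pass. With the central 36 bases the odds ratio was 0.321 (exact Fisher test, adjusted p = 0.0252). Single replicates were compared with 50 bases only, which gave 0.520 in replicate 1 (exact Fisher test, adjusted p = 0.327) and 0.625 in replicate 2 (adjusted p = 0.590). In comparisons added after the values were seen, 130 IDR windows of 100 bp (53.9%) and 2846 lower windows (69.8%) held a base that RefSeq marks as repetitive or low in complexity. The odds ratio was 0.508 (0.391 to 0.659, exact Fisher test, adjusted p = 1.27e-06). No IDR window and 108 lower windows (2.65%) were marked throughout (exact Fisher test, adjusted p = 0.00430). A run of 20 bases shared with an annotated tRNA, snoRNA, snRNA or rRNA gene occurred in 2 IDR windows and in 24 lower ones (0.588%). How reads that match several places were treated is not given in the sources used here, and the part of repeated sequence in the pseudogene difference was not tested.

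Distal summits were rich in G and C. The 100 bp at the summit averaged 46.3% ± 7.87 GC (SD over 241 peaks), whereas a 100 bp flank centred 500 bp from it averaged 34.4% ± 9.02. The summit was higher in 199 of 241 pairs and lower in 37 (82.6% higher, exact sign test, p = 5.14e-28). Among the strongest distal peaks of each replicate alone, the summit was higher in 83.4% for replicate 1 and in 76.7% for replicate 2. Lower distal summits averaged 40.8% ± 9.65 and were higher than their flank in 66.4% of pairs. The share with a higher summit was larger for distal IDR than for lower distal peaks in a test added after the values were seen (odds ratio 2.38, 1.70 to 3.33, Fisher's exact test, p = 5.98e-08). It was not particular to distal peaks among the IDR peaks. The share was 81.9% in promoter windows, 76.7% in gene bodies and 89.7% at small-RNA genes. The profile was narrow, with 46.4% in the 50 bp just left of the summit for IDR peaks against 40.9% for lower peaks.

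Distal summits were poorer in GC than promoter-window summits. Of the distal summits 87 (36.1%) exceeded the median of nuclear IDR summits, a GC content of 49%, against 249 promoter-window summits (50.2%), an odds ratio of 0.562 (0.410 to 0.770, Fisher's exact test, p = 3.79e-04). Mean GC was 48.8% ± 8.18 in promoter windows, 45.3% ± 7.97 in gene bodies and 50.2% ± 6.803 at small-RNA genes. Whether GC content itself affected recovery or sequencing was not tested, since the reads and the control experiment were not analysed here.

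**Figure D4:**
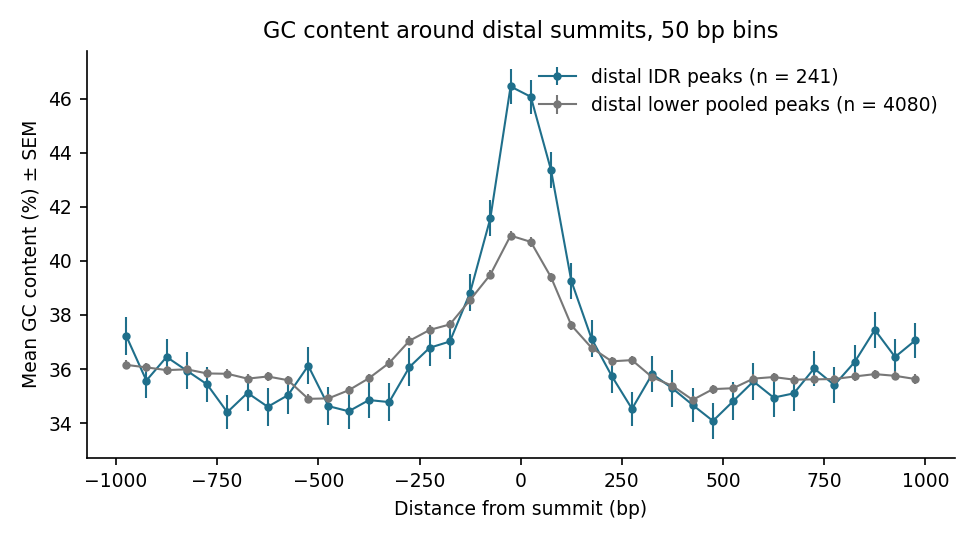
Mean GC content around distal summits in 50 bp bins. The x axis is the distance from the summit in bp and the y axis the mean GC percent, which starts above 0, with error bars of 1 SEM over peaks. The 241 distal IDR peaks reach 46.4% beside the summit and the 4080 distal lower pooled peaks 40.9%, and both return to similar levels before 500 bp on either side.

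Short sequences that factors are known to bind were counted on both strands in the summit window and in a flank of equal length whose centre lay 500 bp from the summit. The motifs were listed with earlier results of these data known, so their p-values are not an independent test. Of 8 motifs, 3 were more frequent at distal summits by an exact McNemar test adjusted over the 8. Summits averaged 46.3% GC and flanks 34.4%, and the counts were not adjusted for base composition. The part of GC content in the motif differences was not tested. The E-box CACGTG, bound by basic helix-loop-helix factors such as the Myc, Mad and Mondo families, lay at 26 summits (10.8%) and 5 flanks (2.07%, exact McNemar adjusted p = 0.00154). The GA repeat GAGAGAG, common in worm promoters, lay at 24 summits (9.96%) and 7 flanks (2.90%, exact McNemar adjusted p = 0.00887). TGATAA, the core recognized by the GATA factors of the worm intestine, lay at 43 summits (17.8%) and 19 flanks (7.88%, exact McNemar adjusted p = 0.00887). In 50 bp bins TGATAA was most frequent in IDR peaks between 100 and 150 bp to the right of the summit, with 14.5 matches per 100 peaks, where lower distal peaks had 6.89 per 100. Lower distal peaks had their highest value, 7.08 per 100, in the 50 bp just left of the summit. E-box and GA repeat calls held in each replicate alone. TGATAA did not pass in replicate 1 alone (14.9% of summits and 7.88% of flanks, exact McNemar adjusted p = 0.0551) or with 200 bp windows (29.5% and 22.4%, adjusted p = 0.193).

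The other 5 motifs did not pass. AGGTCA, the half-site of many nuclear receptors in vertebrates, lay at 6 summits and 6 flanks (2.49% each, exact McNemar adjusted p = 1). TATAAA, the TATA box, lay at 16 summits (6.64%) and 28 flanks (11.6%, exact McNemar adjusted p = 0.161). GTTCGANNC, the core of the B box inside tRNA genes, lay at 5 summits and 1 flank (exact McNemar adjusted p = 0.35), and at 34.3% of the small-RNA-gene summits. The alh-3/hrg-5 and cdk-14/zfr-1 peaks and the peak at the tRNA pseudogene near ser-4 were among those 5. With 200 bp windows the B box core was at 14 summits (5.81%) and 0.830% of flanks, which passed (exact McNemar adjusted p = 0.0111). With 100 bp windows it passed in replicate 2 alone (7 summits and 0 flanks, exact McNemar adjusted p = 0.0408) and not in replicate 1 alone (7 and 2, adjusted p = 0.288). GGGCGTG lay at 1 summit and 3 flanks and TGAGTCA, the AP-1 site, at 3 of each. A match is not a bound site, and a motif absent from these windows says nothing of the factor.

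The E-box was also more frequent in distal IDR than in lower distal peaks, although most distal IDR peaks lacked it. In comparisons added after the values were seen, CACGTG lay in 10.8% of IDR and 2.99% of lower distal windows, an odds ratio of 3.97 (2.55 to 6.18, exact Fisher test, adjusted p = 7.98e-07). TGATAA lay in 17.8% and 11.2% (odds ratio 1.74, 1.24 to 2.45, exact Fisher test, adjusted p = 0.0138), and GAGAGAG in 9.96% and 5.64% (odds ratio 1.88, 1.21 to 2.92, adjusted p = 0.0274). Against promoter-window IDR peaks, distal peaks held CACGTG in 10.8% against 5.85% (odds ratio 1.95, 1.13 to 3.37, exact Fisher test, adjusted p = 0.0964) and TGATAA in 17.8% against 10.5% (odds ratio 1.86, 1.201 to 2.87, adjusted p = 0.0547), neither of which passed. GAGAGAG lay in 9.96% of distal and 11.5% of promoter-window peaks (exact Fisher test, adjusted p = 0.985). The comparison with lower peaks therefore passed for all 3 motifs and that with promoter windows for none of the 8. Gene-body IDR peaks held CACGTG in 7.31%, TGATAA in 10.5% and GAGAGAG in 6.85%, and distal peaks were not tested against them. Distal IDR windows averaged 46.3% GC and lower distal windows 40.8%, and these counts were not adjusted for base composition either.

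The strongest distal peaks with an E-box were those printed above. The mdl-1 peak had 219 in the pooled list, 128 in replicate 1 and 89.6 in replicate 2. The peak between gbb-1, a GABA receptor gene, and aakg-3, which encodes a subunit of AMP-activated protein kinase, had 196 in the pooled list, 125 in replicate 1 and 73.6 in replicate 2. The peak between lpin-1, the lipin gene of lipid synthesis, and letm-1 had 196 in the pooled list, 121 in replicate 1 and 76.3 in replicate 2, and held a GA repeat as well. Both sequences were held by 2 of the 241 distal peaks (0.830%), of which 10.8% held the E-box and 9.96% the GA repeat. Of the 26 peaks with an E-box 7 lay on X and 3 between convergent genes, and their median pooled signal was 134. Of all 241 distal peaks 24.5% lay on X and 19.1% between convergent genes, and their median was 129. These differences were not tested.

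All 6-base words, each counted together with its reverse complement, were compared between summit and flank in the same way. There were 68 words more frequent at summits (3.27% of all words) and 66 more frequent at flanks (3.17%), at an exact McNemar adjusted p under 0.05. The test was not adjusted for the higher GC content of summits. Of the 10 words with the smallest p, 9 were rich in A and T and more frequent at flanks. In order of p these were AAAAAT, then TTAAAA and AAAATT, then TTTAAA and TAAAAA, then AAAAAA and TCAAAA, then AAAATA and CAAAAA. The first lay at 36 summits (14.9%) and 136 flanks (56.4%, exact McNemar adjusted p = 1.13e-14). The tenth was ACGCAG, or CTGCGT on the other strand, at 33 summits (13.7%) and 1 flank (0.415%, exact McNemar adjusted p = 8.48e-07). The words next in order at summits were CGTCTC at 18.7% of summits and 2.90% of flanks, and CTCTCC at 12.9% and 0.830%.

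CTGCGT and CGTCTC overlap in the word CTGCGTCTC, which was put together after these results were seen and is given without a test. It lay in 23 distal IDR windows (9.54%) and in no flank. It lay in 2.08% of lower distal windows, 6.45% of promoter-window, 5.02% of gene-body and 0.429% of small-RNA-gene IDR windows. The gtr-1/F25E2.2 peak, the third strongest distal peak, held it. It was also in the M106.2/M106.7 peak, with 243 in the pooled list, 150 in replicate 1 and 100.2 in replicate 2, and the ret-1/npr-13 peak, with 171, 117 and 60.2 in those lists. A peak between cpt-1, a carnitine palmitoyltransferase gene, and Y46G5A.18 held it beside a GA repeat, with a pooled signal of 194. Of its 23 peaks 3 held the E-box, which lay in 10.8% of all distal peaks, and 7 held GAGAGAG, which lay in 9.96%.

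**Figure D5:**
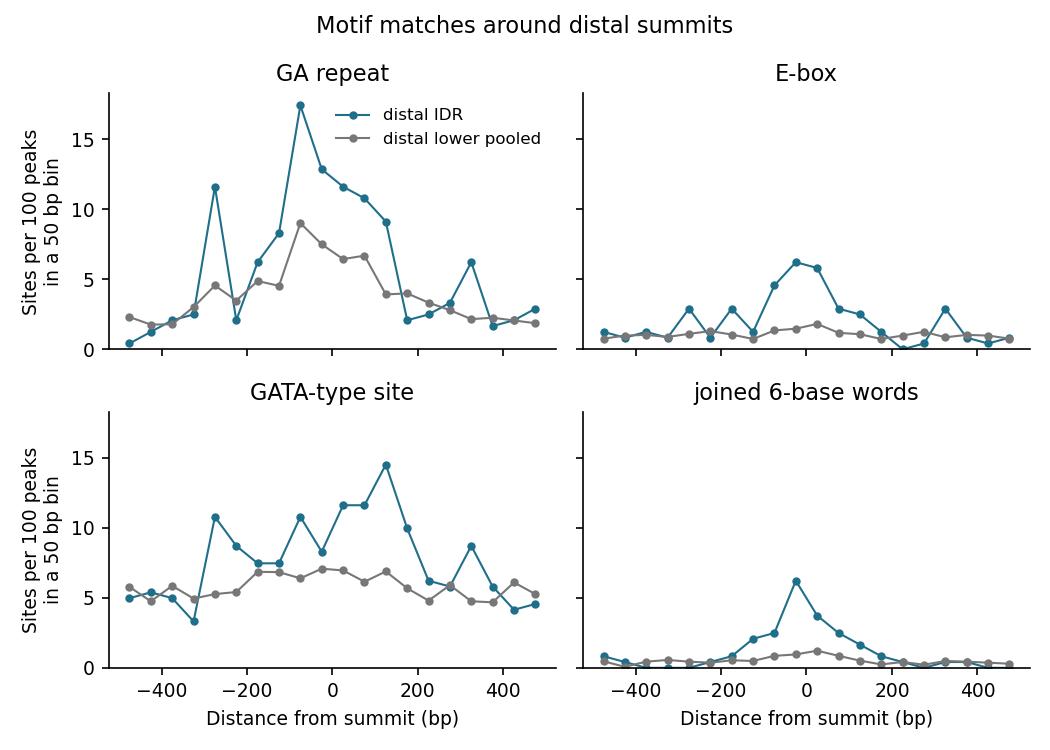
Matches to 4 sequences around distal summits. The x axes give the distance from the summit in bp, and the y axes the matches per 100 peaks in 50 bp bins for 241 distal IDR and 4080 distal lower pooled peaks, with overlapping matches in a GA repeat counted separately. In the bin just left of the summit the E-box stood at 6.22 and 1.47 matches and the joined word at 6.22 and 0.956, while the GA repeat was highest one bin farther left, at 17.4 and 9.02.

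At least 1 of the joined word, the E-box, the GA repeat and TGATAA lay in the window of 95 distal IDR peaks (39.4%), and none in that of the other 146 (60.6%). The peaks with none included 40 of the 59 on X and 37 of the 46 between convergent genes. Their median pooled signal was 126, against 140 for peaks with the joined word, 145 for those with GAGAGAG, 134 for those with the E-box and 123 for those with TGATAA. No comparison of these signals was tested.

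Peak width moved with signal. Of the 241 distal peaks, 175 were exactly 450 bp wide, 58 (24.1%) were narrower and 8 wider. Of the narrower ones 46 of 58 (79.3%) exceeded the median signal of nuclear IDR peaks, against 52 of the other 183 (28.4%). In a comparison added after the values were seen, 24.1% of distal peaks and 55.4% of peaks at small-RNA genes were narrower than 450 bp, an odds ratio of 0.257 (0.182 to 0.364, exact Fisher test, adjusted p = 2.36e-15). The share was 28.6% in promoter windows (odds ratio 0.793, 0.557 to 1.13, exact Fisher test, adjusted p = 0.325) and 26.0% in gene bodies (odds ratio 0.901, 0.592 to 1.37, adjusted p = 0.667). Of the lower distal peaks 99.8% were 450 bp wide.

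Some distal peaks lay close together, and each summit was counted as a separate unit in the tests. The 241 summits lay in 237 regions once overlapping intervals were merged. Another distal IDR summit lay within 1000 bp of 20 summits (8.30%) and within 5000 bp of 57 (23.7%). When overlapping intervals were merged among all nuclear IDR peaks and 1 peak was kept for each region, 234 distal summits were left. No call then changed among the comparisons that were repeated in this way, which left out the GC content and the 6-base words.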

How the data were processed

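The peak lists were deposited by the authors as narrowPeak files on ce11 and ce10, and their signal values are the authors', per the file contents. The pooled list derives from the alignments of both replicates and a control file, and the IDR list from the replicate and pooled lists, per the deposited text records. Not given in the sources used here were the aligner, the peak caller, the scale of its signal, the IDR threshold and how reads matching several places were handled. Read depth is unknown, and intervals reflect only how many peaks were counted. The ce10 IDR list was used only for its length.

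Summits were classed with Ensembl release 115 gene models on WBcel235, the assembly of ce11, and sequence and tRNA pseudogenes came from RefSeq on the same assembly. Coordinates are 1-based. Two-sided Fisher's exact tests compared shares, and odds ratios with Wald 95% intervals were computed after adding 0.5 to every cell. Intervals of single shares are exact Clopper-Pearson intervals. GC content was compared with an exact two-sided sign test, and motifs and 6-base words with an exact McNemar test, between the 100 bp summit window and a flank of equal length centred 500 bp from it. Benjamini-Hochberg adjustment was applied within each family of tests, with a threshold of 0.05. The scripts used Python 3.11.15, numpy 2.4.6, pandas 2.3.3, scipy 1.17.1 and matplotlib 3.10.9. The test of 6-base words and Fisher's exact test were checked on simulated data. In that check summit and flank windows had the same base composition, unlike the real windows.

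The peaks were chosen, and the tests, motifs and gene classes listed, with earlier results of these data known. Peaks were named by a rule: the 20 with the highest pooled signal, those within 100 bp of a microRNA or rRNA gene, the 3 farthest from a coding gene and the 10 words with the smallest p. Others were named after their values were seen. Alternatives used other peak lists, each replicate alone, wider exclusion windows, merged regions, and other distances and sequence windows.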

Additional observations from a re-analysis of the deposited data

How the results depend on the processing

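The distal share gave an odds ratio of 0.932 (Fisher's exact test, p = 0.551) in the 720 strongest IDR peaks, 1.18 (p = 0.0691) with 2000 bp upstream to 1000 bp downstream excluded, and 1.04 to 1.19 over single replicates. The ncRNA and pseudogene odds ratios were 1.80 and 0.446 in the 720 strongest, neither past the threshold, and pseudogenes ranged from 0.319 to 0.515 over single replicates. For X the odds ratio was 1.50 (Fisher's exact test, adjusted p = 0.00714) in as many pooled peaks as the ce10 IDR list holds, 1.98 with the wider exclusion, and 1.35 to 1.74 over single replicates. Repeated sequence passed in that list (0.319, Fisher's exact test, adjusted p = 0.0331) and with 36 bases (0.321, adjusted p = 0.0252), but gave 0.598 (adjusted p = 1) in the 720 strongest and 0.520 to 0.625 over single replicates, none of which passed. Among results that passed neither way, some odds ratios or shares lay on the other side of no difference. In the 720 strongest, distance from coding genes gave 1.10 and a run of a small-RNA gene 0 of 96 windows, an odds ratio of 0.858 after the addition of 0.5. In the longer pooled list, convergent neighbours gave 0.963 and chromosome V 0.890. With the wider exclusion, chromosome III gave 0.998 and tandem neighbours 0.864. A run of 15 bases gave 0.594, and GGGCGTG with 200 bp windows a difference of 0.415 percentage points. Over single replicates, signal ranged from 0.965 to 1.21 against promoter windows and from 0.976 to 1.13 against gene bodies, chromosome V from 0.862 to 0.929, piRNA genes from 1.07 to 1.98 and GGGCGTG from -0.833 to 0.415 percentage points. The cause of these changes was not tested, although a list of 96 distal peaks gives less precision than one of 241. Of the other main results under the alternatives, 57 values kept their direction and their side of the threshold, among them the GC content and the signal against small-RNA genes. For single motifs, classes and chromosomes 111 values did so, 7 passed newly, 2 no longer passed, and 7 had no direction to compare because a difference was 0. Flanks on the other side of the summit, an alternative added after the data were seen, gave 58 words at summits and 56 at flanks.

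No paired analysis was possible because there was 1 group of 2 replicates. Peak lists hold no read counts, so the depth behind each peak is unknown, and the piRNA, antisense RNA and rRNA classes were too small within 100 bp to detect a difference between lists.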
